A study of Mus musculus with 15 samples.

Results

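Expression of 10 genes was followed in mouse bone marrow-derived macrophages (BMDMs). These were the 3 Pim kinase genes *Pim1*, *Pim2* and *Pim3*, and 7 genes of the BCL2 family, namely *Bcl2*, *Bcl2l1*, *Mcl1*, *Bcl2l11*, *Bbc3*, *Bax* and *Bak1*. They were chosen by symbol, and each symbol matched 1 Ensembl identifier, which gave 10 of the 53465 genes in the count matrix. All 10 passed the filter on low counts and were among the 13938 genes tested. BMDMs are macrophages grown from marrow in culture, here for 7 days in DMEM with 10% FBS and 20 ng/ml of M-CSF, the growth factor on which they depend. The study compared how these cells respond to the type 2 cytokines IL-4 and IL-13 and how IL-6 alters that response. The 5 groups of 3 RNAseq libraries, 15 in all, were untreated cells (control) and cells that had received IL-4, IL-4+IL-6, IL-13 or IL-6+IL-13 for 24 h, with IL-4 at 10 ng/ml and both IL-6 and IL-13 at 40 ng/ml. No group received IL-6 alone, and IL-4 and IL-13 were used at different doses. The study's methods describe BMDMs from mice homozygous for a reporter allele, at an age of 8 to 12 weeks, and the controls then share this allele. The labels give no genotype, and the IL-13 dose is the one stated for the study's qPCR of these same treatments. The study calls the RNAseq libraries of its IL-4 arm biological replicates and describes its data in general as coming from independent experiments. Neither the labels nor the methods say whether the 3 libraries of a group came from separate animals or cultures, and the p-values measure the spread between these libraries.

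The BCL2 family sets the threshold for mitochondrial apoptosis. Its pro-survival members (BCL2, BCL-XL from *Bcl2l1*, and MCL1) bind and hold the BH3-only proteins, such as BIM from *Bcl2l11* and PUMA from *Bbc3*, and the effectors BAX and BAK, which permeabilize the outer mitochondrial membrane once they are released. Pim kinases are serine/threonine kinases that are active without an activating modification, so that their amount is set largely by transcription, which JAK-STAT signaling drives, and by rapid turnover. They phosphorylate the BH3-only protein BAD, cell cycle regulators and regulators of translation, and IL-6, a cytokine that acts through gp130 and STAT3, is a classical inducer of *Pim1*. Protein was not measured in these data.

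The summed counts per library were between 17001352 and 18918686, so depth differed little between the libraries, and the biological coefficient of variation within groups was 9.33%. Replicates differed by more than counting noise in each pair (mean chi-square per gene between 2.60 and 42.2), and IL-4+IL-6 replicate 2 and IL-13 replicate 1 stood apart most from the other libraries of their groups. Calls of the 10 members that were lost without either are given without it. The macrophage label was checked on 8 markers (*Csf1r*, *Adgre1*, *Cd68*, *Itgam*, *Mertk*, *Fcgr1*, *Lyz2* and *Cd14*), all of them detected in each group, with a summed level between 10900 and 21114 CPM (counts divided by the scaled library size). This sum was lower with IL-6 than without it, without overlap (14309 to 14780 CPM with IL-4 and 10900 to 12704 CPM with IL-4+IL-6, 17051 to 19800 CPM with IL-13 and 13928 to 14820 CPM with IL-6+IL-13), a sum in which *Lyz2* weighs most (means of 9698 and 6852 CPM, and of 12745 and 8692 CPM). The single markers did not move together: *Adgre1* had higher means with IL-6 (884 and 1288 CPM in the IL-4 arm, 941 and 1454 CPM in the IL-13 arm), as did *Fcgr1* (101 and 217 CPM, 188 and 479 CPM) and *Mertk* (8.27 and 12.7 CPM, 14.5 and 17.9 CPM). Means of *Csf1r* (1824 and 1581 CPM, 1929 and 1697 CPM), *Cd68* (1701 and 1509 CPM, 1723 and 1590 CPM) and *Cd14* (101 and 46.5 CPM, 259 and 228 CPM) were lower with IL-6. *Itgam* was lower with IL-6 in the IL-4 arm (209 and 169 CPM) and higher in the IL-13 arm (197 and 252 CPM). In control the sum was between 18935 and 21114 CPM, and only the IL-13 libraries overlapped with it. Compared with control, the mean of *Mertk* was lower in each treated group (143 CPM against 8.27 to 17.9 CPM). So were those of *Csf1r* (2195 CPM against 1581 to 1929 CPM), *Lyz2* (14924 CPM against 6852 to 12745 CPM) and *Cd14* (292 CPM against 46.5 to 259 CPM). Those of *Cd68* (1317 CPM against 1509 to 1723 CPM) and *Adgre1* (844 CPM against 884 to 1454 CPM) were higher in each. *Itgam* and *Fcgr1* were higher in some treated groups and lower in others. The part of these differences in the results was not tested. Markers of other cells differed between the control and the treated groups. The sum of 7 granulocyte markers was between 336 and 402 CPM in the control libraries and at most 2.04 CPM in the 12 treated ones, that of 5 B cell markers between 10.8 and 12.3 CPM against at most 1.66 CPM, and that of 5 stromal markers between 16.5 and 21.4 CPM against at most 0.375 CPM. Mast cell and basophil markers were between 16.2 and 18.8 CPM in control and between 0.979 and 8.55 CPM after treatment. In the treated groups this sum was nearly all *Kit*, which other cells express too and whose mean was 3.75 CPM with IL-4, 1.20 CPM with IL-4+IL-6, 6.87 CPM with IL-13 and 2.48 CPM with IL-6+IL-13, while the means of *Cpa3*, *Mcpt8*, *Fcer1a* and *Ms4a2* were at most 0.0881 CPM. Of 6 T and NK cell markers, *Cd3e*, *Cd3g* and *Ncr1* had at most 3 counts in every library, and the sum did not exceed 1.44 CPM, while 4 erythroid markers together did not exceed 0.834 CPM. These differences run parallel to every comparison with control that follows, and their part in those results was not tested. Between the treated groups all of these sums except that of mast cell and basophil markers were at most 2.04 CPM in each library. The summed level of 5 markers of cycling cells was between 750 and 903 CPM in control, above every treated library, and did not overlap between the treated libraries with and without IL-6. It was between 400 and 439 CPM with IL-4 and between 139 and 170 CPM with IL-4+IL-6, and between 483 and 565 CPM with IL-13 and between 183 and 212 CPM with IL-6+IL-13. In control *Mki67* weighed most in this sum (mean of 429 CPM, against 142 CPM with IL-4 and 205 CPM with IL-13). *Top2a* differed less (221 CPM against 169 and 210 CPM), and *Cdk1* was higher with the single cytokines (50.7 CPM against 55.7 and 61.5 CPM). Each of the 5 markers had a lower mean with IL-6 than without it in both arms. The part of proliferation in the comparisons with control and in those on IL-6 was not tested.

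The promoters of the members were read from RefSeq (GRCm38.p6) as the 250 bases before each annotated start, and the 10 members had 16 such windows. IL-4, IL-13 and IL-6 signal through STAT proteins, and the windows were searched with 50 further bases after the start, on both strands, for 2 STAT motifs, TTC and GAA separated by 3 bases of any kind, and TTC and GAA separated by 4, the spacing that STAT6 prefers. Both read the same on either strand. The first was found in none of the 16 windows, against 8.30% of all 32851 windows in the table. The second was found in 1, a window of *Bcl2l1*, against 6.95% of all windows. The letters GTAAACA, which FOXO factors bind, were searched for after the values were seen and were found in 3 windows, of *Bcl2l11*, *Bbc3* and *Pim1*, against 3.65% of all windows. The 4 windows with a match are printed here without the bases that GENCODE annotates as UTR, except the 30 bases around the *Bcl2l1* match, 5′ to 3′ in the direction of transcription, the matched letters in capitals, because *Bcl2l1* had the largest rise with IL-13, *Bcl2l11* the widest range of all 10 members, *Pim1* the largest rise with IL-6, and *Bbc3* is the other BH3-only gene. The *Bcl2l1* window lies inside the gene, all 256 of its bases are annotated as UTR of a transcript, and the stretch printed is chr2:152828484-152828513 on the minus strand, which runs into the first bases after the start. The *Bcl2l11* window is chr2:128125788-128126037, just before the annotated gene, and the *Bbc3* window is chr7:16310011-16310260, inside the gene but in none of its annotated exons. The *Pim1* window also lies inside the gene. Its last 48 bases are annotated as UTR, and chr17:29492835-29493036, which is in none of its annotated exons, is printed. The last 3 windows are on the plus strand. In the *Bbc3* window the motif lies on the opposite strand and reads TGTTTAC.
Bcl2l1: gctgacacaatgagtgctttTTCTTCAGAA
Bcl2l11: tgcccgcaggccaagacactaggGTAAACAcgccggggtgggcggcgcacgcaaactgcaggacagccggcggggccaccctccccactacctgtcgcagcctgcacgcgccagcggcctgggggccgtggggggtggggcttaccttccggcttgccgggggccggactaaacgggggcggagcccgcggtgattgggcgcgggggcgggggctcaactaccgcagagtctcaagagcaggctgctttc
Bbc3: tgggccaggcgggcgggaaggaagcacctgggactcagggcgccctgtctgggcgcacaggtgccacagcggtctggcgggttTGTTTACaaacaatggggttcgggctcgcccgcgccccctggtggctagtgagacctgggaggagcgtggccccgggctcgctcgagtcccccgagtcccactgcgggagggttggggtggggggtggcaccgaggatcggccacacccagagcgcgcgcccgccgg
Pim1: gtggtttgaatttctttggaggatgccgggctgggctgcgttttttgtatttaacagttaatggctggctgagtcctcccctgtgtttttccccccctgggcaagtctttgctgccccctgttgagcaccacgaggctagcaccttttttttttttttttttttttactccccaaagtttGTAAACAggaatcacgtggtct
The match began 227 bases before the start in *Bcl2l11*, 167 bases before it in *Bbc3*, 70 bases before it in *Pim1*, and 4 bases before it in *Bcl2l1*. *Bcl2l1* and *Bbc3* have 3 annotated starts in the table and *Pim1* and *Bcl2l11* have 2, and the counts per gene do not tell which start was used. A match is a description of the sequence, and no match says only that these letters are not in the window.

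*Pim1* fell with IL-4 and with IL-13 alone and rose when IL-6 was added to either. *Pim1* (ENSMUSG00000024014) is a protein-coding gene at chr17:29490753-29496112 on the plus strand, with 7 transcripts in GENCODE. Its normalized level was 33.9, 40.5 and 37.6 CPM in control replicates 1, 2 and 3, and 23.2, 21.0 and 21.8 CPM with IL-4. With IL-4+IL-6 it was 68.0, 75.7 and 69.6 CPM. All 3 IL-4 libraries lay below every control library and all 3 IL-4+IL-6 libraries above. The corresponding values were 17.4, 19.1 and 17.1 CPM with IL-13 and 36.4, 34.4 and 37.9 CPM with IL-6+IL-13, so that the IL-6+IL-13 libraries lay within the range of control. By the quasi-likelihood test of edgeR, with p-values adjusted by Benjamini-Hochberg over the 13938 genes, the log2 fold change was -0.76 ± 0.0833 (standard error, SE, adjusted p = 4.18e-07) for IL-4 over control and -1.07 ± 0.0846 (adjusted p = 1.00e-08) for IL-13 over control. In bulk RNA fewer cells of a type and less RNA per cell cannot be told apart, here or in the results that follow. Addition of IL-6 to IL-4 raised *Pim1* 3.23-fold (log2 fold change 1.69 ± 0.0828, adjusted p = 3.14e-11), a rise exceeded by 2.32% of the tested genes. Addition of IL-6 to IL-13 raised it 2.03-fold (1.02 ± 0.0848, adjusted p = 5.78e-08), which 3.88% of the tested genes exceeded. Compared with control, *Pim1* was 1.91-fold higher with IL-4+IL-6 (adjusted p = 1.43e-08), while with IL-6+IL-13 its log2 fold change was -0.04 ± 0.0811 (adjusted p = 0.671). Between the groups with IL-6, it was 1.96-fold higher with IL-4 as the partner than with IL-13 (adjusted p = 6.90e-08). Between the cytokines alone it was higher with IL-4 (0.30 ± 0.0865, adjusted p = 0.0280), a call lost without IL-4 replicate 1 (adjusted p = 0.108), IL-4 replicate 3 (0.0627) or IL-13 replicate 3 (0.122).

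*Pim2*, the lowest of the Pim genes per length, was called in 1 of the 2 comparisons in which IL-6 was added. *Pim2* (ENSMUSG00000031155, chrX:7878262-7883432, plus strand), whose kinase shares substrates with PIM1, was at 3.07, 3.99 and 3.65 CPM in control and at 2.94, 2.82 and 3.49 CPM with IL-4, ranges that overlap. With IL-4+IL-6 it was at 7.20, 8.13 and 7.37 CPM, above every other library. It was at 4.34, 3.66 and 4.33 CPM with IL-13 and at 5.55, 4.01 and 4.95 CPM with IL-6+IL-13, which again overlap. The rise on adding IL-6 to IL-4 was 2.45-fold (log2 fold change 1.29 ± 0.160, adjusted p = 3.98e-06). On adding IL-6 to IL-13 the log2 fold change was 0.23 ± 0.160 (adjusted p = 0.335). Neither cytokine alone moved *Pim2* past the threshold, with log2 fold changes of -0.21 ± 0.170 for IL-4 (adjusted p = 0.290) and 0.21 ± 0.164 for IL-13 (adjusted p = 0.294). Over control it was 2.12-fold higher with IL-4+IL-6 (adjusted p = 8.83e-06) and 1.35-fold higher with IL-6+IL-13 (adjusted p = 0.0260), and the latter call was lost without control replicate 1 (adjusted p = 0.112) and without IL-6+IL-13 replicate 1 (adjusted p = 0.0949).

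*Pim3* rose with IL-4 and with IL-13, where *Pim1* fell, and was not called when IL-6 was added. *Pim3* (ENSMUSG00000035828, chr15:88862186-88865726, plus strand) was at 9.64, 11.8 and 11.5 CPM in control and at 37.3, 32.3 and 35.5 CPM with IL-4. It was at 29.9, 33.4 and 33.7 CPM with IL-4+IL-6, which overlaps with IL-4 alone. The IL-13 libraries were at 18.0, 18.8 and 21.4 CPM and the IL-6+IL-13 libraries at 19.7, 23.6 and 20.2 CPM, which overlap with each other and lie between control and IL-4. IL-4 raised *Pim3* 3.19-fold (log2 fold change 1.67 ± 0.107, adjusted p = 4.47e-10) and IL-13 raised it 1.77-fold (0.82 ± 0.109, adjusted p = 5.51e-06). The level with IL-4 was 1.81-fold that with IL-13 (adjusted p = 1.60e-05), the largest of the 10 members' differences between these groups, which 2.82% of the tested genes exceeded. The log2 fold change on adding IL-6 was -0.12 ± 0.0994 with IL-4 (adjusted p = 0.389) and 0.13 ± 0.104 with IL-13 (adjusted p = 0.436).

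**Figure D1:**
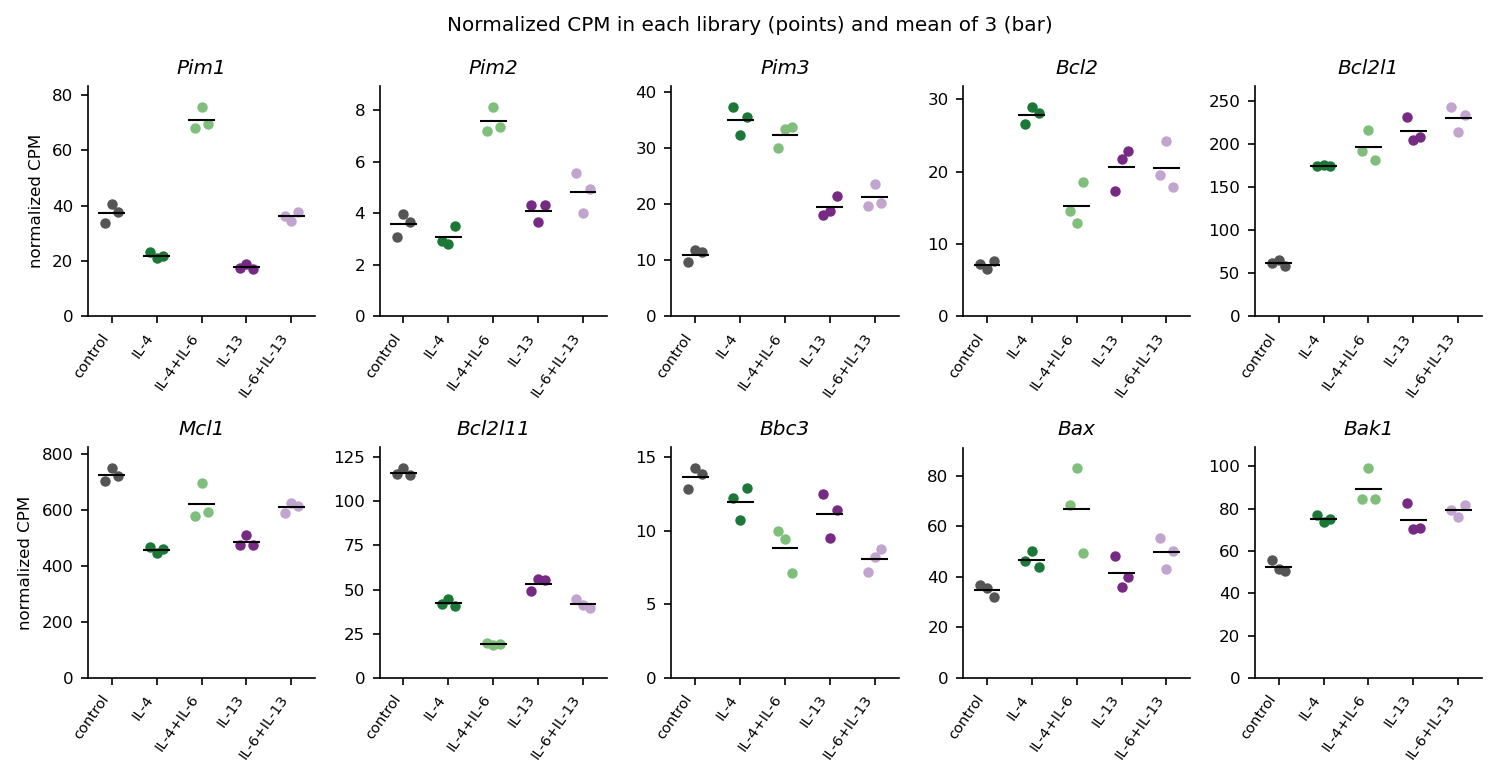
Normalized CPM (linear axes starting at 0, each with its own scale) of the 10 genes in the 15 libraries, 3 per group, with a bar at the mean of 3. *Pim1* and *Pim2* are highest in the IL-4+IL-6 libraries (68.0 to 75.7 and 7.20 to 8.13 CPM), *Bcl2l11* falls from 115 to 119 CPM in control to 18.7 to 19.8 CPM with IL-4+IL-6, and *Bcl2l1* is at least 174 CPM in each treated library against at most 64.9 CPM in control.

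Among the pro-survival genes, *Bcl2l1* and *Bcl2* rose with both type 2 cytokines and *Mcl1* fell. *Bcl2l1* (ENSMUSG00000007659, chr2:152780668-152831728, minus strand, 9 transcripts) encodes BCL-XL and, by another splice site, the shorter and pro-apoptotic BCL-XS, which counts per gene do not separate. Its level was 62.5, 64.9 and 58.6 CPM in control, 175, 176 and 174 CPM with IL-4, and 192, 216 and 182 CPM with IL-4+IL-6. With IL-13 it was 232, 205 and 208 CPM, and with IL-6+IL-13 243, 214 and 233 CPM. All 12 treated libraries lay above all 3 control libraries. The rise over control was 2.82-fold with IL-4 (log2 fold change 1.50 ± 0.0770, adjusted p = 2.74e-11) and 3.47-fold with IL-13 (1.79 ± 0.0774, adjusted p = 5.04e-12), which 4.91% and 2.52% of the tested genes exceeded. It was lower with IL-4 than with IL-13 (log2 fold change -0.30 ± 0.0742, adjusted p = 0.0127), a call lost without IL-4 replicate 3 (adjusted p = 0.0506). Adding IL-6 gave 0.17 ± 0.0743 with IL-4 (adjusted p = 0.0827), which passed the threshold without IL-4+IL-6 replicate 3 (0.20, adjusted p = 0.0483) and was 0.08 (adjusted p = 0.389) without IL-4+IL-6 replicate 2, and 0.10 ± 0.0740 with IL-13 (adjusted p = 0.385).

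*Bcl2* itself rose most with IL-4 and was lower when IL-6 was present with IL-4. *Bcl2* (ENSMUSG00000057329, chr1:106538178-106714274, minus strand, 2 transcripts) was at 7.19, 6.54 and 7.63 CPM in control and at 26.5, 29.0 and 28.0 CPM with IL-4. With IL-4+IL-6 it was at 14.5, 12.9 and 18.5 CPM, between control and IL-4 and overlapping with neither. It was at 17.3, 21.8 and 22.9 CPM with IL-13 and at 19.6, 24.2 and 17.9 CPM with IL-6+IL-13, which overlap. The rise over control was 3.91-fold with IL-4 (log2 fold change 1.97 ± 0.150, adjusted p = 4.32e-09) and 2.90-fold with IL-13 (1.54 ± 0.151, adjusted p = 1.52e-07). In the presence of IL-4, IL-6 lowered *Bcl2* 1.82-fold (log2 fold change -0.86 ± 0.140, adjusted p = 8.27e-05). In the presence of IL-13 the change was -0.01 ± 0.139 (adjusted p = 0.979), and its sign depended on the library left out. The difference between IL-4 and IL-13 (0.43 ± 0.137, adjusted p = 0.0481) was lost when any of the 6 libraries was left out (without IL-13 replicate 1, 0.32 and adjusted p = 0.116).

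*Mcl1*, the most abundant member per length, fell with both type 2 cytokines and rose when IL-6 was added. *Mcl1* (ENSMUSG00000038612, chr3:95658788-95663176, plus strand, 2 transcripts) encodes a short-lived pro-survival protein on which myeloid cells depend. It was at 704, 749.6 and 724 CPM in control, at 468, 446 and 459.5 CPM with IL-4 and at 578, 699 and 593 CPM with IL-4+IL-6. It was at 477, 511 and 475 CPM with IL-13 and at 590.5, 627 and 617 CPM with IL-6+IL-13. Control was above every treated library, and among the treated libraries those with IL-6 were above those without it. *Mcl1* fell 1.59-fold with IL-4 (log2 fold change -0.66 ± 0.0683, adjusted p = 1.92e-07) and 1.49-fold with IL-13 (-0.57 ± 0.0682, adjusted p = 1.50e-06). IL-6 raised it 1.36-fold over IL-4 (0.45 ± 0.0682, adjusted p = 4.43e-05) and 1.25-fold over IL-13 (0.33 ± 0.0681, adjusted p = 0.00146). Without IL-4+IL-6 replicate 2, the highest library of its group, the rise over IL-4 was 0.34 on the log2 scale (adjusted p = 3.85e-05). Compared with control the combinations were 1.16-fold lower (IL-4+IL-6, adjusted p = 0.00820) and 1.19-fold lower (IL-6+IL-13, adjusted p = 0.00432), and both calls were lost when no filter on low counts was applied (adjusted p = 0.0525 and 0.0537), the first also without IL-4+IL-6 replicate 1 (adjusted p = 0.0661).

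*Bcl2l11*, the gene of the BH3-only protein BIM that binds all pro-survival members, fell with each cytokine and fell further with IL-6. *Bcl2l11* (ENSMUSG00000027381, chr2:128126038-128162547, plus strand, 8 transcripts) was at 115, 119 and 115 CPM in control, at 41.5, 44.5 and 40.8 CPM with IL-4 and at 19.8, 18.7 and 19.3 CPM with IL-4+IL-6. It was at 49.0, 55.9 and 55.3 CPM with IL-13 and at 44.9, 41.1 and 39.6 CPM with IL-6+IL-13. The 3 libraries of control, of IL-4 and of IL-4+IL-6 formed separate ranges without overlap, and so did those of control, IL-13 and IL-6+IL-13. IL-4 lowered *Bcl2l11* 2.75-fold (log2 fold change -1.46 ± 0.0713, adjusted p = 1.41e-11) and IL-13 lowered it 2.18-fold (-1.12 ± 0.0703, adjusted p = 4.63e-10). The fall was larger with IL-4 than with IL-13 (log2 difference -0.34 ± 0.0715, adjusted p = 0.00399). IL-6 lowered it by a further 2.19-fold with IL-4 (-1.13 ± 0.0758, adjusted p = 1.88e-09) and 1.28-fold with IL-13 (-0.35 ± 0.0716, adjusted p = 0.00120). Without IL-13 replicate 1 the latter was -0.42 (adjusted p = 3.05e-04), and without IL-4+IL-6 replicate 2 the former was -1.12 (adjusted p = 1.80e-09). With IL-4+IL-6 it was 6.02-fold lower than in control (-2.59 ± 0.0760, adjusted p = 1.02e-14), and with IL-6+IL-13 2.77-fold lower (adjusted p = 1.18e-11).

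*Bbc3*, the gene of PUMA, a BH3-only protein known as a p53 target, was called in no comparison of a single cytokine with control and fell when IL-6 was added. *Bbc3* (ENSMUSG00000002083, chr7:16308393-16318205, plus strand, 4 transcripts) was at 12.9, 14.2 and 13.9 CPM in control, at 12.3, 10.7 and 12.9 CPM with IL-4 and at 9.98, 9.43 and 7.14 CPM with IL-4+IL-6. It was at 12.5, 9.52 and 11.4 CPM with IL-13 and at 7.23, 8.19 and 8.73 CPM with IL-6+IL-13. In both arms the libraries with IL-6 lay below those without. The log2 fold change on adding IL-6 was -0.43 ± 0.139 with IL-4 (adjusted p = 0.0195) and -0.47 ± 0.140 with IL-13 (adjusted p = 0.0194), and leaving out single libraries ended the first call in 2 of 6 cases (without IL-4+IL-6 replicate 3, -0.32 and adjusted p = 0.0791, and without IL-4 replicate 3, -0.40 and adjusted p = 0.0611) and the second in 3 of 6 (without IL-13 replicate 1, adjusted p = 0.0721, without IL-13 replicate 3, 0.0545, and without IL-6+IL-13 replicate 1, 0.0800). Against control, IL-4 gave -0.19 ± 0.134 (adjusted p = 0.217) and IL-13 -0.29 ± 0.135 (adjusted p = 0.0718), whereas the combinations were 1.54-fold lower (IL-4+IL-6, adjusted p = 6.31e-04) and 1.69-fold lower (IL-6+IL-13, adjusted p = 1.35e-04).

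Of the effector genes, *Bak1* rose with IL-4 and with IL-13, and *Bax* rose with IL-4. *Bak1* (ENSMUSG00000057789, chr17:27019810-27029009, minus strand, 4 transcripts), whose protein resides on mitochondria, was at 55.6, 51.5 and 50.5 CPM in control, at 77.1, 73.5 and 74.9 CPM with IL-4 and at 84.5, 99.0 and 84.5 CPM with IL-4+IL-6. It was at 82.9, 70.6 and 70.7 CPM with IL-13 and at 79.5, 76.2 and 81.7 CPM with IL-6+IL-13. Each treated library was above the control libraries. The rise was 1.43-fold with IL-4 (log2 fold change 0.52 ± 0.0803, adjusted p = 2.48e-05) and 1.42-fold with IL-13 (0.51 ± 0.0803, adjusted p = 3.67e-05). Adding IL-6 to IL-4 gave 0.25 ± 0.0792 (adjusted p = 0.0185), a call that was lost with upper-quartile normalization (0.16, adjusted p = 0.130), with no filter, in the fit of the compared libraries and without IL-4+IL-6 replicate 2 (0.16, adjusted p = 0.119), IL-4 replicate 2 (0.21, adjusted p = 0.0995) or IL-4 replicate 3 (0.22, adjusted p = 0.0769). With IL-13 it gave 0.08 ± 0.0793 (adjusted p = 0.510).

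*Bax* (ENSMUSG00000003873, chr7:45461697-45466898, minus strand, 6 transcripts), whose protein moves from the cytosol to mitochondria when activated, varied widely between the IL-4+IL-6 replicates. It was at 36.6, 35.4 and 32.1 CPM in control, at 46.3, 50.1 and 43.9 CPM with IL-4 and at 68.2, 82.9 and 49.5 CPM with IL-4+IL-6. It was at 48.1, 35.8 and 40.1 CPM with IL-13 and at 55.5, 43.1 and 50.3 CPM with IL-6+IL-13. The IL-4 libraries lay above control, and the IL-4+IL-6 libraries overlapped with those of IL-4. The rise with IL-4 was 1.35-fold (log2 fold change 0.43 ± 0.151, adjusted p = 0.0184) and was lost without control replicate 3 (0.38, adjusted p = 0.0635). IL-13 gave 0.25 ± 0.151 (adjusted p = 0.163), which passed the threshold with no filter on low counts (0.31, adjusted p = 0.00552) and in the fit of the compared libraries (0.27, adjusted p = 0.0465). Without IL-13 replicate 1 it was 0.16 (adjusted p = 0.396). Adding IL-6 to IL-4 gave a 1.43-fold rise (0.52 ± 0.148, adjusted p = 0.0101), which was lost without IL-4+IL-6 replicate 2 (0.32, adjusted p = 0.0638) and without IL-4 replicate 3 (0.45, adjusted p = 0.0535). Adding it to IL-13 gave 0.26 ± 0.149 (adjusted p = 0.229), which passed with no filter (0.28, adjusted p = 0.0316). Over control, *Bax* was higher with IL-4+IL-6 (0.95 ± 0.150, adjusted p = 2.49e-05) and with IL-6+IL-13 (0.52 ± 0.151, adjusted p = 0.00659), and both calls were kept under each alternative.

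Counts of calls over the 10 members have to be read against how many genes changed in all. IL-4 against control called 8 members, when 68% of all tested genes were called. Of these, 5 were higher (32.1% of the tested genes were) and 3 lower (35.9%). IL-13 against control called 7, when 60.1% of the tested genes were called, with 4 higher (29%) and 3 lower (31.1%). These 2 comparisons share the control libraries. With an added requirement of a log2 fold change of at least 1 in either direction, 4 members were called with IL-4 (*Pim3*, *Bcl2*, *Bcl2l1* and *Bcl2l11*) against 26.1% of the tested genes, and 4 with IL-13 (*Pim1*, *Bcl2*, *Bcl2l1* and *Bcl2l11*) against 20.3%. The replicates of the 2 groups did not overlap for 8 members in IL-4 against control (76.2% of the tested genes) and for 8 in IL-13 against control (67.1%). Over the 10 members the median log2 fold change was 0.12 with IL-4 and 0.23 with IL-13, beside -0.05 and -0.02 over all tested genes.

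Adding IL-6 to IL-4 called 8 members, when 39.4% of the tested genes were called, and 5 of them were higher (20.7%) and 3 lower (18.7%). The calls of *Pim1*, *Pim2*, *Bcl2*, *Mcl1* and *Bcl2l11* were kept under each alternative, and these 5 were the ones left without IL-4 replicate 3. Adding it to IL-13 called 4, when 25.6% of the tested genes were called, with 2 higher (12.1%) and 2 lower (13.5%). Of all genes called on adding IL-6 to IL-4, 52.6% were higher with the scaling used here and 39.0% with upper-quartile scaling. At a log2 fold change of at least 1 in either direction, 3 members were called with IL-4 (*Pim1*, *Pim2* and *Bcl2l11*) against 11.8% of the tested genes and 1 with IL-13 (*Pim1*) against 7.25%. The groups did not overlap for 8 members with IL-4 (46.7% of the tested genes) and for 4 with IL-13 (37.7%). Their median log2 fold change was 0.21 and 0.11, beside 0.04 and 0.01 over all tested genes.

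For the combinations against control, all 10 members were called with IL-4+IL-6, when 72.9% of the tested genes were, with 7 higher (35.4%) and 3 lower (37.5%), and 5 of them at a log2 fold change of at least 1 (33%). With IL-6+IL-13 it was 9, when 64% of the tested genes were called, with 6 higher (31.9%) and 3 lower (32.1%), and 3 of them at a log2 fold change of at least 1 (24.4%). The groups did not overlap for 10 members with IL-4+IL-6 (74.3% of the tested genes) and 9 with IL-6+IL-13 (73%). IL-4 against IL-13 called 5 members, when 12.8% of the tested genes were called, with 3 higher with IL-4 (5.16%) and 2 lower (7.61%), 0 at a log2 fold change of at least 1 (2.12%) and 7 without overlap (31.5%). Of these calls, those of *Pim3* and *Bcl2l11* were kept under each alternative. IL-4+IL-6 against IL-6+IL-13 called 7 members, when 31.3% of the tested genes were called, with 4 higher with IL-4+IL-6 (15.8%) and 3 lower (15.5%), 1 at a log2 fold change of at least 1 (*Bcl2l11*, 6.17%) and 5 without overlap (39.3%). Here the calls of *Pim1*, *Pim2*, *Pim3* and *Bcl2l11* were kept under each alternative. The calls of *Bcl2* (-0.42, adjusted p = 0.0311) and *Bax* (0.43, adjusted p = 0.0350) were both lost without IL-4+IL-6 replicate 2 (-0.31 and 0.25, adjusted p = 0.119 and 0.184), IL-4+IL-6 replicate 1 (adjusted p = 0.0940 and 0.0898) or IL-6+IL-13 replicate 2 (adjusted p = 0.174 and 0.163), and that of *Bax* also without IL-6+IL-13 replicate 3 (adjusted p = 0.0766). The call of *Bcl2l1* (-0.23, adjusted p = 0.0271) was kept without IL-4+IL-6 replicate 2 (-0.30, adjusted p = 0.00305) and lost when 4 of the other 5 libraries were left out in turn (adjusted p between 0.0624 and 0.0914).

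**Figure D2:**
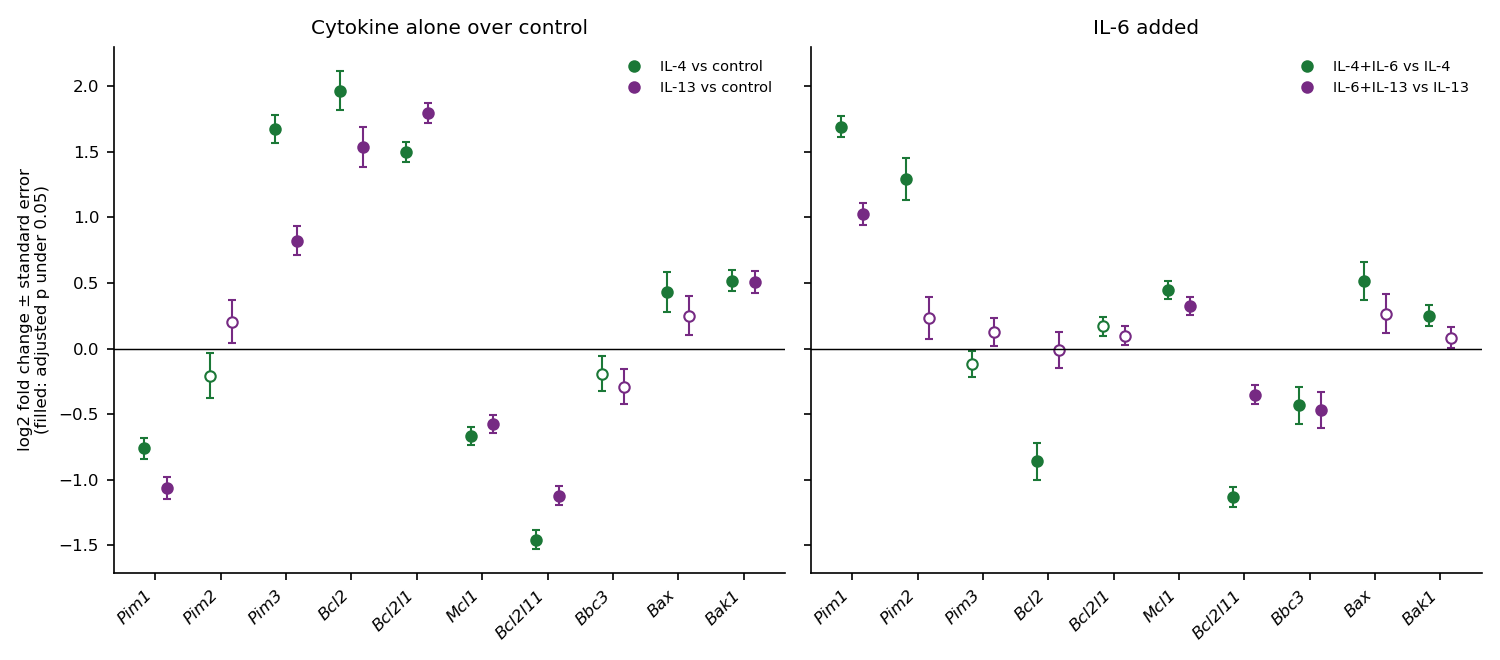
Log2 fold changes (points) and standard errors (bars) of the 10 genes, left for IL-4 and IL-13 over control and right for IL-6 added to each, filled where the adjusted p is under 0.05. *Bcl2l11* lies below 0 in all 4 comparisons (-1.46, -1.12, -1.13 and -0.35), while *Pim1* lies below 0 on the left (-0.76 and -1.07) and above it on the right (1.69 and 1.02).

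The effect of IL-6 differed between the IL-4 and the IL-13 arm for 4 members. The difference was tested as an interaction, that is the log2 fold change on adding IL-6 to IL-4 minus that on adding it to IL-13. It was 0.67 ± 0.118 for *Pim1* (adjusted p = 0.00130), 1.06 ± 0.226 for *Pim2* (adjusted p = 0.00618), -0.85 ± 0.197 for *Bcl2* (adjusted p = 0.0109) and -0.78 ± 0.104 for *Bcl2l11* (adjusted p = 9.97e-05). Hence 4 of 10 members were called, when 7.64% of all tested genes were, 2 of them higher (3.22% of the tested genes) and 2 lower (4.42%), and *Pim2* alone had an absolute interaction of at least 1 (1.88%). Of those genes 42.2% had a positive interaction, and 31.7% did with upper-quartile scaling. The effects of *Pim1* and *Bcl2l11* had the same sign in both arms and were larger with IL-4. Those of *Pim2* and *Bcl2* were called with IL-4 and not with IL-13. All 4 calls were kept with upper-quartile normalization, DESeq2, both other filters and the replicate block, and when any of the 12 libraries was left out. Without IL-4+IL-6 replicate 2 the interaction was 0.62 for *Pim1*, 1.00 for *Pim2*, -0.75 for *Bcl2* and -0.76 for *Bcl2l11*, and without IL-13 replicate 1 it was 0.67, 1.01, -0.75 and -0.74. For the other 6 members it was between -0.24 ± 0.144 (*Pim3*, adjusted p = 0.427) and 0.25 ± 0.210 (*Bax*, adjusted p = 0.623). Because IL-4 and IL-13 were given at different doses, the cytokine and its dose cannot be told apart in this difference.

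**Figure D3:**
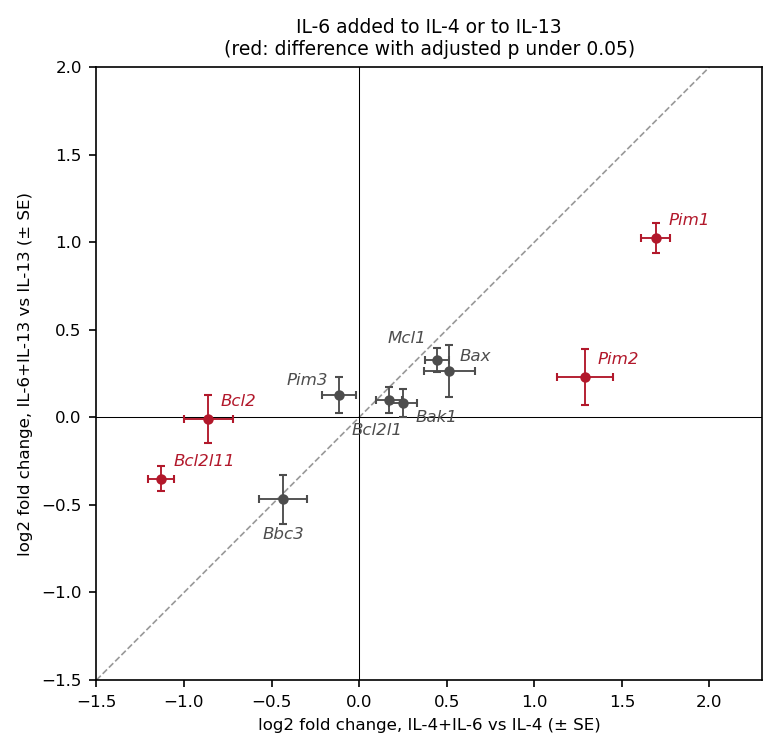
Log2 fold change on adding IL-6 to IL-4 (horizontal) against that on adding it to IL-13 (vertical), with standard errors and a dashed line where both are equal, and in red the genes whose difference had an adjusted p under 0.05. *Pim1* (1.69 and 1.02) and *Pim2* (1.29 and 0.23) lie below the line and *Bcl2* (-0.86 and -0.01) and *Bcl2l11* (-1.13 and -0.35) above it, while *Mcl1* (0.45 and 0.33) and *Bbc3* (-0.43 and -0.47) lie near it.

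Levels of different genes were compared on the deposited FPKM, which is per length of the gene. *Mcl1* was the highest member in each group, with 221.7 ± 5.23 FPKM (SD, n = 3) in control and 135 ± 2.95 FPKM with IL-4. *Bax* (23.0 ± 1.52) and *Bak1* (22.8 ± 1.29) came next in control, followed by *Bcl2l11* (15.1 ± 0.147), *Pim1* (14.8 ± 1.20) and *Bcl2l1* (14.1 ± 0.641). Among the last 3, the range of *Pim1* overlapped with both others, while those of *Bcl2l11* and *Bcl2l1* did not overlap. With IL-4 *Bcl2l1*, at 38.6 ± 0.384 FPKM, was second to *Mcl1*, and in the IL-13 arm it was at 48.0 ± 2.74 FPKM without IL-6 and 49.0 ± 2.76 FPKM with it. *Bcl2* was at 0.812 ± 0.0686 FPKM in control and at most 3.08 ± 0.140 FPKM (IL-4), so it remained far below the other pro-survival genes. *Pim2* stayed between 1.12 ± 0.124 FPKM (IL-4) and 2.55 ± 0.0744 FPKM (IL-4+IL-6).

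**Figure D4:**
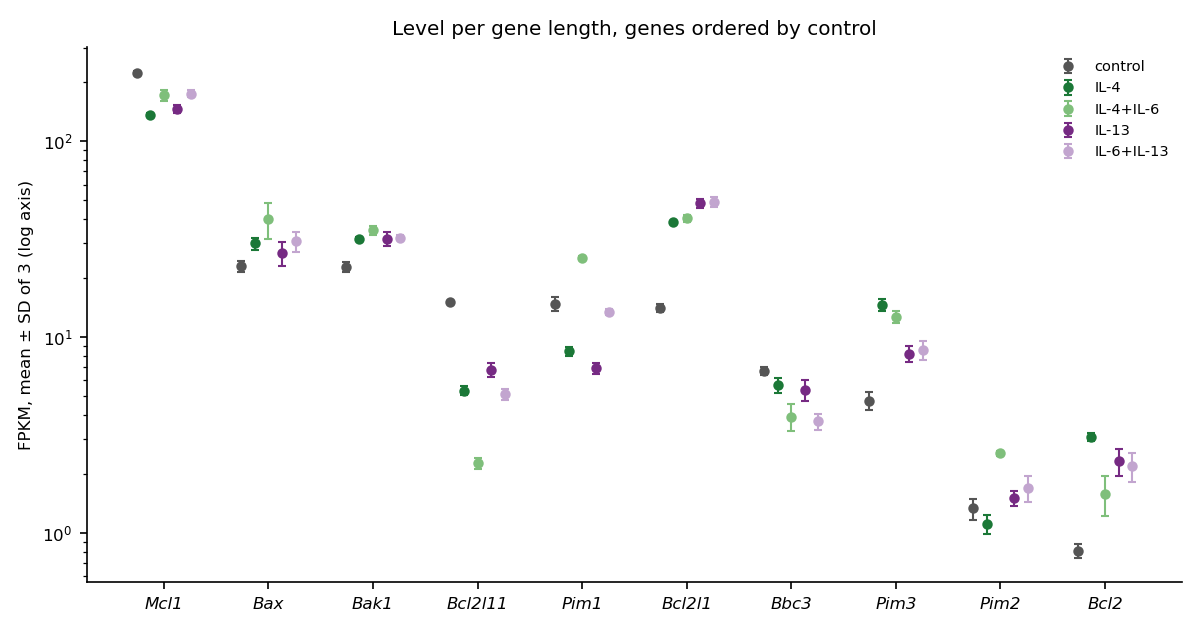
Deposited FPKM (mean and SD of 3 libraries, log axis) of the 10 genes in the 5 groups, ordered by the control level. *Mcl1* (135 to 221.7 FPKM) is above all other members in each group, *Bcl2l1* moves from 14.1 to between 38.6 and 49.0 FPKM, and *Bcl2l11* from 15.1 down to 2.27 FPKM.

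Summed by role, the BH3-only members *Bcl2l11* and *Bbc3* together were lower with each treatment than in control, and the pro-survival genes were lowest with IL-4. The summed FPKM of the 3 pro-survival genes was 236.6 ± 5.33 (SD, n = 3) in control, 177 ± 2.63 with IL-4, 214 ± 11.9 with IL-4+IL-6, 196.5 ± 5.62 with IL-13 and 226 ± 4.31 with IL-6+IL-13. Which group is highest depends on the scale: in normalized CPM per kilobase the sum was 227 ± 6.98 in control, 227 ± 22.5 with IL-4+IL-6 and 231 ± 2.98 with IL-6+IL-13, and these ranges overlap, whereas it was 175 ± 2.95 with IL-4 and 192 ± 4.88 with IL-13. Within that sum *Mcl1* made up 93.7% ± 0.254 in control and between 74.4% ± 1.68 (IL-13) and 80.3% ± 0.663 (IL-4+IL-6) after treatment. The share of *Bcl2l1* went from 5.97% ± 0.267 to between 18.9% ± 0.663 and 24.5% ± 1.80. The sum of the 2 BH3-only genes *Bcl2l11* and *Bbc3* was 21.8 ± 0.385 FPKM in control, 11.0 ± 0.231 with IL-4, 6.19 ± 0.624 with IL-4+IL-6, 12.2 ± 0.417 with IL-13 and 8.79 ± 0.0648 with IL-6+IL-13. No libraries of the IL-4+IL-6 group overlapped with those of another group in this sum. The effector sum of *Bax* and *Bak1* had its lowest mean in control (45.8 ± 2.68 FPKM) and its highest with IL-4+IL-6 (74.7 ± 9.50). The IL-4+IL-6 libraries (65.1 to 84.0 FPKM) overlapped with those of IL-13 (53.7 to 65.7 FPKM) and of IL-6+IL-13 (58.3 to 66.3 FPKM). The ratio of *Bcl2l1* to *Bcl2l11* FPKM was 0.935 ± 0.0348 in control, 7.25 ± 0.290 with IL-4, 17.9 ± 2.01 with IL-4+IL-6, 7.10 ± 1.04 with IL-13 and 9.65 ± 0.626 with IL-6+IL-13. This ratio compares transcripts and says nothing of how much protein is bound.

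The leading Pim gene differed between the groups. In control *Pim1* made up 70.9% ± 0.719 of the summed FPKM of the 3 genes and *Pim3* 22.7% ± 0.597, whereas with IL-4 *Pim1* made up 34.9% ± 0.802 and *Pim3* 60.5% ± 0.671. With IL-4+IL-6 *Pim1* was again the leading gene (62.6% ± 1.04 against 31.1% ± 1.17). With IL-13 *Pim3* made up 49.3% ± 2.74 and *Pim1* 41.6% ± 3.03, and with IL-6+IL-13 *Pim1* led with 56.7% ± 2.54. The sum itself was 20.8 ± 1.82 FPKM in control and 24.2 ± 1.44 with IL-4, where the lowest IL-4 library (22.7) lay just above the highest control library (22.4). It was 40.6 ± 1.50 with IL-4+IL-6, 16.7 ± 0.828 with IL-13 and 23.7 ± 0.357 with IL-6+IL-13. These sums and shares are descriptions and were not tested.

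**Figure D5:**
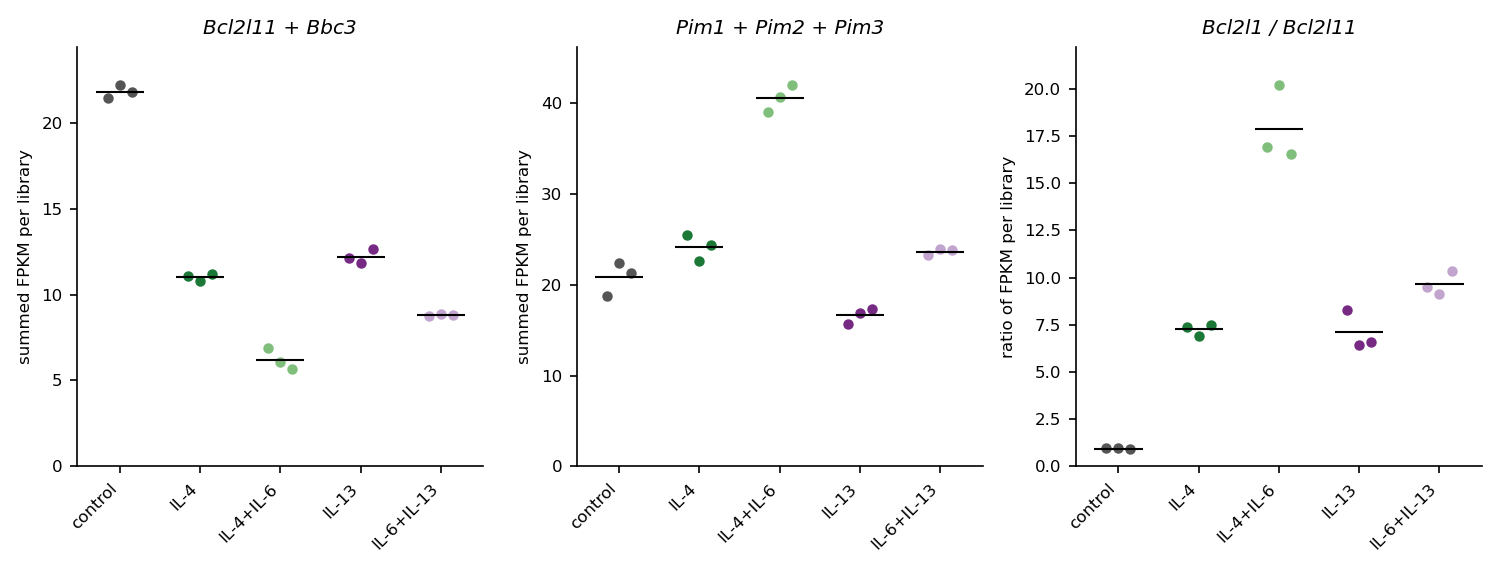
Summed FPKM of *Bcl2l11* and *Bbc3* (left), summed FPKM of the 3 Pim genes (middle) and the ratio of *Bcl2l1* to *Bcl2l11* FPKM (right) in each library, with a bar at the mean of 3 and axes starting at 0. The BH3-only sum is lowest (mean 6.19) and the Pim sum (40.6) and the ratio (17.9) are highest in the IL-4+IL-6 libraries.

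Other genes of the same pathway were taken from lists of related genes. Of 5 further pro-survival relatives, 4 were tested and *Bcl2l10* had no counts. With IL-4 over control 3 of the 4 fell and none rose (median log2 fold change -0.69, beside -0.05 over all tested genes, of which 35.9% fell and 32.1% rose), among them *Bcl2a1d* (-1.60 ± 0.163) and *Bcl2a1a* (-0.90 ± 0.302), genes of the pro-survival protein A1. Adding IL-6 to IL-4 lowered these 2 further (*Bcl2a1d* -1.41, *Bcl2a1a* -1.33) and raised *Bcl2l2*, the gene of BCL-W, by 0.20, and adding it to IL-13 lowered *Bcl2a1a* (-1.08) and *Bcl2a1d* (-0.98). The *Bcl2a1* genes are near-identical copies, so the division of reads between them is uncertain. Of 7 further BH3-only and effector genes, 4 were tested, and *Bik*, *Hrk* and *Bok* were too low. *Bmf* (-3.67 ± 0.174) and *Pmaip1*, the gene of NOXA (-2.57 ± 0.18), fell with IL-4, and *Bid*, which links death receptors to mitochondria, rose (0.23 ± 0.0722). *Bid* was also higher than in control with IL-13 (0.43), IL-4+IL-6 (1.00) and IL-6+IL-13 (0.73), unlike the sum of *Bcl2l11* and *Bbc3*. With IL-6 on top of IL-4, *Bid* (0.77) and *Bad* (0.34) rose and *Bmf* (-0.61) fell, when 39.4% of all tested genes were called. With IL-6 on top of IL-13 only *Bid* of the 4 was called (0.29), when 25.6% of all tested genes were called. The interaction of *Bid* was 0.47 (adjusted p = 0.00565). *Pmaip1* was not called on adding IL-6 to IL-4 (0.09, adjusted p = 0.767).

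Downstream of the mitochondria, 9 caspase and apoptosome genes were tested, of which 5 rose and 2 fell with IL-4 over control (median 0.46, beside -0.05 over all tested genes, of which 32.1% were higher and 35.9% lower). *Casp6* (1.88), an executioner caspase, and *Cycs* (1.32), which encodes cytochrome c, rose, and *Apaf1* (-1.21), the scaffold of the apoptosome, and *Casp8* (-0.22), the initiator caspase of death receptors, fell. Adding IL-6 to IL-4 raised 2 and lowered 4 of the 9 (median -0.21, beside 0.04 over all tested genes, of which 20.7% were higher and 18.7% lower), with *Cycs* (0.42) and *Casp6* (0.28) higher and *Htra2* (-0.47), the gene of a mitochondrial protease, lower. Adding it to IL-13 raised 2 and lowered 1 (median -0.00250, beside 0.01 over all tested genes, of which 12.1% were higher and 13.5% lower), with *Casp6* (0.57) and *Casp8* (0.18) higher and *Htra2* (-0.34) lower. Of 9 inhibitor of apoptosis and death receptor genes, 2 rose and 7 fell with IL-4 (median -0.71, beside the same -0.05, 32.1% and 35.9% over all tested genes), with *Birc3* at -1.90 and the death receptor *Fas* at -1.94, and with *Fadd* (0.48), an adaptor of death receptors, and *Tnfrsf1a* (0.19), a TNF receptor, higher. Adding IL-6 raised 4 and lowered 2 of the 9 with IL-4 (median 0.13, beside 20.7% and 18.7% of all tested genes) and raised 4 and lowered 1 with IL-13 (median 0.12, beside 12.1% and 13.5%). The 4 raised were the same in both arms, *Fas* (1.39 with IL-4 and 1.21 with IL-13), *Cflar*, the gene of the caspase-8 inhibitor c-FLIP (0.80 and 0.56), *Tnfrsf1a* (0.63 and 0.58) and *Ripk1* (0.42 and 0.36), the gene of a kinase of death receptor signaling. *Xiap*, the gene of a caspase inhibitor, fell on adding IL-6 to IL-4 (-0.32). *Birc5* (-1.53 and -1.49 on adding IL-6) is also one of the 5 cycling markers.

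The counts that follow stand beside 32.1% higher and 35.9% lower of all tested genes with IL-4 over control (median -0.05), 20.7% and 18.7% on adding IL-6 to IL-4 (median 0.04), and 12.1% and 13.5% on adding it to IL-13 (median 0.01). Among 9 STAT and feedback genes, 4 rose and 4 fell with IL-4 over control (median 0.03), and 6 rose and 2 fell on adding IL-6 to IL-4 (median 0.48). The feedback inhibitors *Socs1* (5.16) and *Cish* (3.82) rose with IL-4, while *Socs3* (-2.36) and *Stat3* (-1.20) fell. IL-6 raised *Socs3* by 6.25 ± 0.175 with IL-4 and by 6.39 ± 0.182 with IL-13, and *Stat3* by 1.72 and 1.63. *Stat6*, whose protein IL-4 and IL-13 activate, fell on adding IL-6 to IL-4 (-0.37). *Socs3* and *Stat3* are known to be induced by STAT3, and their interactions were -0.14 ± 0.301 (adjusted p = 0.886) and 0.09 ± 0.109 (adjusted p = 0.764), beside 0.67 ± 0.118 for *Pim1*. Whether the interactions of these genes differ from each other was not tested, nor was the part of STAT3 in them. Of 11 genes of Pim substrates, 4 rose and 4 fell with IL-4 (median 0.12), with *Myc* at 3.38 and *Cdkn1a*, the gene of the cell cycle inhibitor p21, at 2.81, and with *Cdc25c* at -1.67 and *Cdkn1b* at -1.45. Adding IL-6 to IL-4 raised 4 and lowered 5 of them (median -0.20), with *Cdkn1a* (0.79) and *Eif4ebp1* (0.44), the gene of a translation repressor, higher and *Cdc25c* (-1.52) and the kinase gene *Map3k5* (-1.32) lower. Adding it to IL-13 raised 1 (*Cdkn1a*, 0.49) and lowered 5 (median -0.23), with *Cdc25c* at -1.05 and *Map3k5* at -0.52. Of 10 p53 genes and targets, 9 were tested. IL-4 raised 6, with *Cdkn1a* at 2.81 and *Aen* at 1.61, and lowered 2, *Sesn1* (-1.70) and *Sesn2* (median 0.39), and IL-6 on top of IL-4 raised 6 and lowered 2 (median 0.52), with *Zmat3* at 1.35, *Phlda3* at 1.19 and *Sesn1* at -0.56. These were not all the same genes, since *Trp53* rose with IL-4 (0.55) and fell on adding IL-6 (-0.17), and *Sesn2* fell with IL-4 (-0.31) and rose on adding IL-6 (0.47). Adding IL-6 to IL-13 raised 4, with *Phlda3* at 0.73 and *Zmat3* at 0.65, and lowered *Trp53* (-0.29). *Bbc3* and *Bax*, which p53 is known to induce as well, had -0.43 and 0.52 on adding IL-6 to IL-4. These lists were chosen with earlier results of these data known, and their counts are descriptions.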

How the data were processed

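RNA of 15 BMDM libraries, 3 in each of 5 groups taken from the sample titles, had been sequenced and its primary analysis done by a service company. The authors deposited raw, whole-number counts for 53465 genes and, for 26080 of them, FPKM values, each of which is that gene's count over the library total and over a gene length (the same length in all libraries to a relative 7.35e-07). The submitters' processing notes name GRCm38, CASAVA, Bowtie2 2.2.3, HISAT2 2.1.0, TopHat2 and DESeq2. Their roles, the annotation, the counter and any strand setting are not given in the sources used here. Without strand, reads of overlapping antisense genes cannot be assigned, but those annotated over the members had at most 3 counts in each library, except *Ggnbp1* over *Bak1* (17 to 41 counts, against at least 900 of *Bak1*), of which a second identifier was not used here.

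The counts were tested in R 4.3.3 with edgeR 4.0.16, using filterByExpr (minimum count 10), TMM factors (0.897 to 1.05), and one quasi-likelihood fit (glmQLFit, glmQLFTest) of the 15 libraries without covariates. P-values were adjusted by Benjamini-Hochberg over 13938 genes. A member was called at an adjusted p under 0.05. Normalized CPM used the same factors. The fold changes come from that fit, and levels of different genes from FPKM (mean and SD of 3 libraries). The script was tested on simulated data. Coordinates are those of GENCODE M21 (GRCm38), and promoter windows those of RefSeq.

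The named genes were the 10 members in each comparison and, of each pathway list, up to 2 called genes with the largest and up to 2 with the smallest log2 fold change in IL-4 against control and in the 2 comparisons in which IL-6 was added. In addition the 5 genes were named whose log2 normalized CPM (prior count 2) correlated best with the member of widest range, along with cell type markers. The members and lists were chosen with earlier results of these data known. The alternatives were upper-quartile normalization, DESeq2 1.42.0, no filter on low counts or a filter of 50 counts in 3 libraries, a replicate block, a fit of the compared libraries only, CPM per kilobase in place of FPKM, and leaving out each library. Libraries with the same replicate number did not deviate together (correlations between -0.276 and 0.163, 3 of 30 above 0.1), so no pairing was used. No unassigned sample columns were left out. Some items are not reported here.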

Additional observations from a re-analysis of the deposited data

Results flagged for a closer look

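For 4 members the effect of IL-6 differed between the 2 arms, by a test of that difference (edgeR's quasi-likelihood test, Benjamini-Hochberg adjustment over 13938 genes, n = 3 per group). The log2 fold change on adding IL-6 to IL-4 exceeded that on adding IL-6 to IL-13 by 0.67 for *Pim1* (adjusted p = 0.00130) and by 1.06 for *Pim2* (adjusted p = 0.00618). It was more negative for *Bcl2*, by -0.85 (adjusted p = 0.0109), and for *Bcl2l11*, by -0.78 (adjusted p = 9.97e-05). Each IL-4+IL-6 library of *Pim1* and *Pim2* was above each IL-4 library, and each one of *Bcl2* and *Bcl2l11* was below. Of all tested genes, 7.64% had such a difference. The dose of IL-4 was 10 ng/ml and that of IL-13 was 40 ng/ml, and dose and cytokine cannot be told apart.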

How the results depend on the processing

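Of 62 calls in 90 comparisons of a member, 48 were kept in each alternative, and 0 called values changed sign. The cause of the changes was not tested. Uncalled values near 0 changed sign as follows: with no filter on low counts, *Bcl2* on adding IL-6 to IL-13 (0.00728), *Pim1* in IL-6+IL-13 against control (0.0328) and the interaction of *Bbc3* (-0.00812, and -0.0142 with upper-quartile normalization and -0.0120 with a filter of 50 counts), and, with that filter, *Mcl1* in IL-4+IL-6 against IL-6+IL-13 (-0.00596). With single libraries left out, these ranged from -0.15 to 0.0713 (*Bcl2*), from -0.11 to 0.0240 (*Pim1*), from -0.0753 to 0.16 (*Bbc3*) and from -0.0604 to 0.0683 (*Mcl1*), and in IL-4 against IL-13 *Bak1* ranged from -0.0350 to 0.0967 and *Bbc3* from -0.00336 to 0.20, while the interaction of *Bcl2l1* ranged from -0.00436 to 0.11. The fit of the compared libraries only called 4 members in IL-4+IL-6 against IL-6+IL-13 in place of 7, and 2900 genes in place of 4368. Leaving out single libraries, 4 to 6 members were called there, 5 to 8 on adding IL-6 to IL-4 (5 without IL-4 replicate 3), and 2 to 4 in IL-4 against IL-13, where 1779 genes became 1088 to 2915 (2915 without IL-13 replicate 1, 1128 without IL-4 replicate 3, 1149 without IL-13 replicate 2 and 1088 without IL-13 replicate 3). As replicate numbers do not pair these libraries, the replicate block is given here only: it ended the call of *Bcl2* in IL-4 against IL-13 (0.43, adjusted p = 0.0544), changed no other call of a member, and gave 9305 called genes for IL-4 against control in place of 9476. CPM per kilobase with TMM factors moved 7 of 50 FPKM levels by over 1 SD, by a ratio of at most 1.07, and put the summed pro-survival level of control (227) below that with IL-6+IL-13 (231). Depth was similar across libraries, and with 3 libraries per group a p that misses the threshold does not show that values did not differ.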

Other observations

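*Bcl2l11* had the widest range of group means among the 10 members, 2.58 on the log2 CPM scale. Among the 5 tested genes outside the lists whose log2 normalized CPM was most like it over the 15 libraries were *Vsir* (Pearson's r = 0.993), *Ccr2* (0.992), *Ptafr* (0.992) and *Ptprc* (0.991). The libraries fall into 5 groups and share the high control level, so the correlations are a description without a test. *Vsir*, the gene of the checkpoint receptor VISTA, had a mean of 535 CPM in control, 200.5 CPM with IL-4, 88.5 CPM with IL-4+IL-6, 265 CPM with IL-13 and 210.5 CPM with IL-6+IL-13. *Ccr2*, a chemokine receptor of monocytes, had means of 82.2, 14.8, 3.66, 18.8 and 13.6 CPM in the same order. *Ptafr*, the receptor of platelet-activating factor, had 354, 51.7, 11.6, 91.6 and 42.2 CPM, and *Ptprc*, the gene of CD45, 599.9, 256, 147.5, 304 and 249 CPM. In each of these 4, as in *Bcl2l11*, the mean was highest in control and lowest with IL-4+IL-6.

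The ratio of *Bak1* to *Bax* FPKM was between 0.903 ± 0.185 (SD, n = 3, IL-4+IL-6) and 1.19 ± 0.0880 (IL-13) in the 5 groups, so both effectors were at similar levels per length throughout. The ratio of *Bcl2* to *Bcl2l11* FPKM was 0.0538 ± 0.00505 in control, 0.578 ± 0.0220 with IL-4, 0.696 ± 0.129 with IL-4+IL-6, 0.338 ± 0.0270 with IL-13 and 0.431 ± 0.0737 with IL-6+IL-13.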
